A study of Arabidopsis thaliana with 8 samples.

Results

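The values are those of the 2 slides, of 8 in all, whose target was made by PCR from 50 ng of silique RNA in 20 cycles. Siliques are the seed pods of Arabidopsis thaliana. The 90%-late sample held pods of 6 to 10 days after pollination (DAP) with 10% of early pods mixed in, and it was set against early pods of 2 to 5 DAP. PCR here means that cDNA was given a second primer site by template switching and then copied exponentially. The other 6 slides carried the same pair of RNA samples as unamplified target from 30 µg, after a single round of in vitro transcription from 5 µg (IVT), or after a repeated round from 50 ng (2IVT). Of 26912 probes on the array, 22916 (85.2%) had a value on both PCR slides, and these were used. Those with a match in the platform and RefSeq annotation covered 12340 loci, of which 1318 carry a gene symbol. Of all probes on the array 12373 had no gene in the platform annotation, so counts of measured family members leave these out.

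The early sample was labelled with Cy5 and the 90%-late sample with Cy3 on both slides, so stage and dye cannot be told apart. Both slides shared 1 preparation of 90%-late target and came from 1 pair of RNA samples, which the labels call a single biological replicate. The error given with each value (SD, n = 2) therefore measures preparation of the early target and hybridization. It covers neither plants nor amplification of the 90%-late target. A log2 ratio of 1 is a 2-fold difference, and positive values are higher in 90%-late. This is the reverse of the direction in the deposited table, whose log base and direction were inferred from the dyes and the values and are not stated in it. A pod holds valves, a seed coat, endosperm and embryo, so a ratio from a whole pod cannot separate more cells of a tissue from more RNA per cell. Ratios within a probe give no level, and levels of different genes were not compared.

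Pods of 2 to 5 DAP are in a phase of rapid elongation, during which cell walls are loosened and extended while the embryo is still small. In the following days the seed becomes a sink for sugars, the endosperm is gradually consumed, and the embryo begins to accumulate oil bodies and storage proteins. Storage proteins are cut to their mature form by vacuolar processing enzymes, oil bodies are coated by oleosins, and SWEET proteins carry sucrose out of maternal cells towards the embryo.

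Of the 22916 probes, 3453 (15.1%) were called higher in 90%-late and 3781 (16.5%) lower (limma over all 8 slides, Benjamini-Hochberg adjusted p under 0.05). The larger ratios lay on the late side. By the mean of both slides 559 probes were at least 2-fold higher in 90%-late and 242 at least 2-fold lower, of which 558 (2.43% of all probes) and 241 (1.05%) were also called. Beyond 10-fold there were 6 probes higher in 90%-late and 0 lower. The mixing of 10% early pods into 90%-late bounds a ratio on the early side at about 10-fold, and no such bound acts on the late side.

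The slides gave log2 ratios that correlated with r = 0.77 (Pearson, across probes, which are not independent replicates), and 74.5% of probes had the same sign on both. Sign and mean come from the same slides, so a mean further from 0 makes a shared sign likelier by construction. The shares by size are therefore no measure of precision. Among probes with a mean under 0.25 from 0, 52.5% had the same sign, against 96.7% between 0.25 and 0.5 and 99.6% between 0.5 and 1. The SD between slides was 0.23, and the median slide difference was 0.19 below a mean of 0.25 and 0.32 above a mean of 2.

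**Figure D1:**
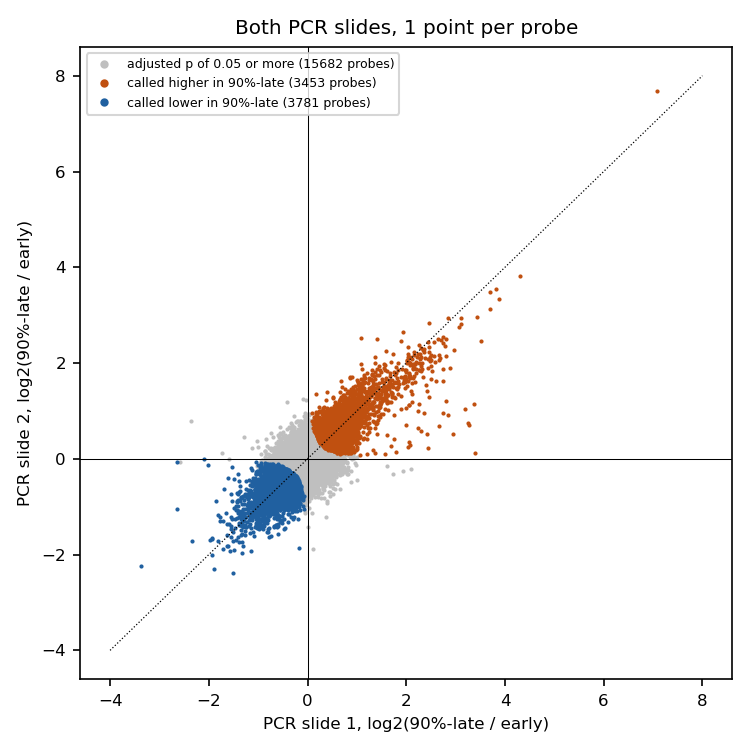
Log2(90%-late / early) of each probe on PCR slide 1 (x axis) and PCR slide 2 (y axis). Orange points are the 3453 probes called higher in 90%-late, blue points the 3781 called lower, grey points the rest, and the dotted line marks equal values. The cloud reaches further on the late side, and a scatter of orange points below the line is high on slide 1 alone.

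A cluster of probes departed from this agreement. In 12 consecutive probe numbers of the array, 10 had values on both slides and slide 1 was higher in all 10, with a median log2 ratio of 2.02 on slide 1 and 0.31 on slide 2. The median gap in that stretch of 16 probe numbers was 1.07, whereas no other such stretch exceeded 0.44. AT1G10095 had 2.95 on slide 1 and 0.52 on slide 2, AT1G12020 had 3.39 and 0.12, and AT1G53180 had 2.06 and 0.34. Of the 10 probes 8 were called higher in 90%-late and 6 of these were 2-fold by the mean. Apart from AT1G66850 (1.98 and 1.49) the called loci there lay under 0.65 on slide 2. The calls of AT1G10095 and AT1G53180 were lost without slide 1. Where these probes sit on the slide was not given in the sources used here, and a cause was not tested. Outside that stretch, GH9B15, a member of glycosyl hydrolase family 9, had 3.19 and 1.03, and AT1G75420 had 2.44 and 0.22.

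Among loci with a symbol, 38 were called and at least 2-fold higher in 90%-late, and 18 were called and at least 2-fold lower, beside 2.35% and 0.875% of all 12340 loci. CYP78A9, a cytochrome P450 whose overexpression is known to enlarge fruits and seeds, led the late genes with log2 ratios of 3.69 and 3.13 on the slides (mean 3.41 ± 0.40 SD, n = 2, adjusted p = 1.27e-06). Both slides lay above 3. PDC2, a pyruvate decarboxylase of the fermentative pathway, had 2.70 and 2.47 (2.59 ± 0.16, adjusted p = 5.43e-06). UGT73C2, a UDP-glucosyl transferase, had 2.57 and 2.43 (2.50 ± 0.10, adjusted p = 2.48e-06). SDH2-3, an iron-sulphur subunit of succinate dehydrogenase, had 2.46 and 1.29, a wider gap than that of PDC2 or UGT73C2. It was called (adjusted p = 0.000217). The adjusted p takes its spread from the slides of all regimes, so it does not measure the spread of the PCR slides alone. The SD between slides ran from 0.16 (IVT) to 0.25 (2IVT).

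Probes matched to no locus reached 7.38 and are not named here. Among matched loci without a symbol the highest were AT5G44380 with 3.87 and 3.35, AT5G24130 with 3.44 and 2.96, and AT4G36700, described as a cupin domain protein, with 3.51 and 2.47. AT5G51490 had 3.11 and 2.81, AT1G77100 had 3.07 and 2.76, and AT1G03890 had 2.46 and 2.84. All 6 were called, and both slides of each lay above 2. AT2G41390, AT4G12290 and AT4G15390 followed, with means of 2.63, 2.57 and 2.47.

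**Figure D2:**
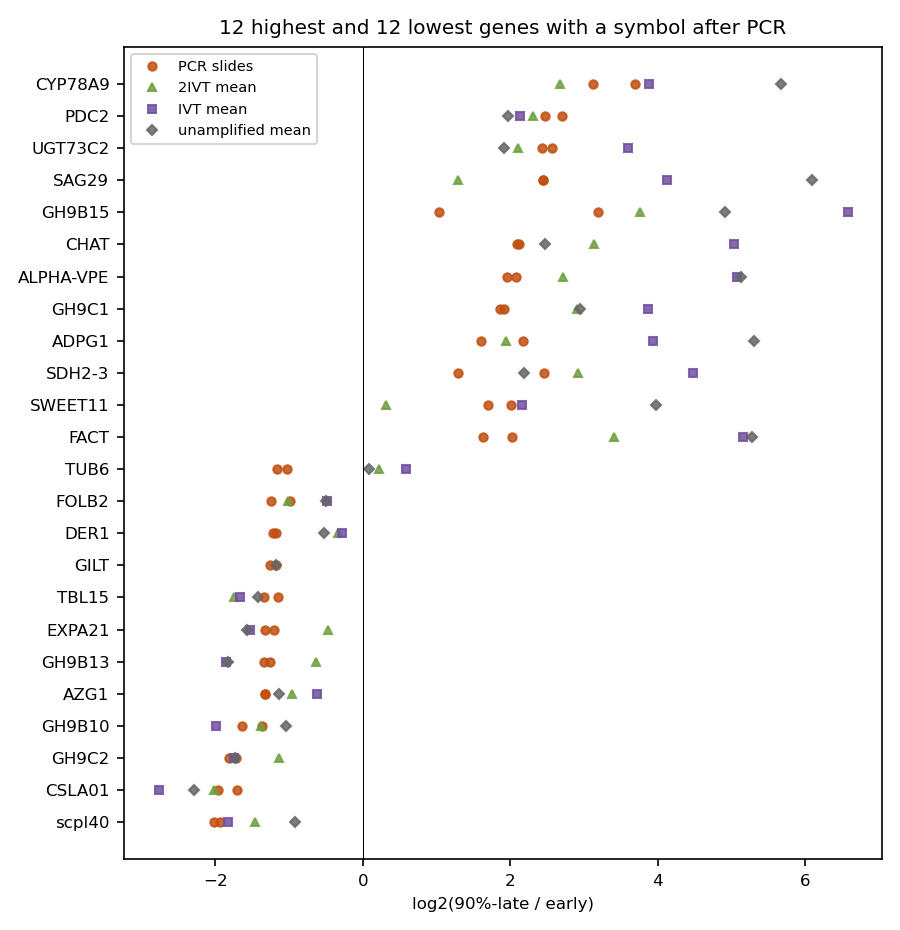
Log2(90%-late / early) of the 12 highest and the 12 lowest loci with a symbol after PCR. Orange circles are the individual PCR slides, and the other markers are means of 2 slides for 2IVT (triangle), IVT (square) and unamplified target (diamond). CYP78A9 stood at 3.41 after PCR and 5.67 unamplified, while TUB6 lay below 0 after PCR alone.

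The sugar transport genes SAG29 and SWEET11 were among the late ones. SAG29, also named SWEET15, had 2.45 and 2.45 (adjusted p = 0.000101), and SWEET11 had 1.69 and 2.01 (adjusted p = 2.66e-05). Both are sucrose exporters that are known to feed the embryo through the seed coat. The other 7 SWEET genes measured, SWEET1, SWEET2, SWEET6, SWEET8, SWEET9, SWEET10 and SWEET17, were not called, with slide values from -0.35 to 0.53. The late ratio was thus large for 2 members of a family whose other measured members were not called. Over all loci 15.1% were called higher.

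Of the 4 vacuolar processing enzymes 3 were called higher in 90%-late, beside 15.1% of all 12340 loci higher and 14.7% lower. ALPHA-VPE had 2.08 and 1.95 (adjusted p = 1.05e-06), BETA-VPE, the seed enzyme, had 1.04 and 0.44 (adjusted p = 0.00386), and GAMMA-VPE had 0.33 and 0.46 (adjusted p = 0.014). The calls of BETA-VPE without slide 1 and of GAMMA-VPE without slide 2 were lost. DELTA-VPE, known from the seed coat, had -0.01 and 0.14 and was not called. Both measured oil body genes with a name or description were called, and 1 further measured locus of that list without either was left out. OLEO3 had 1.42 and 1.24 (adjusted p = 0.000112), and the oleosin AT3G01570 had 2.01 and 2.05, which places both slides of each gene above 1. EEL, a bZIP factor of late embryogenesis, was called with 0.38 and 0.65 (adjusted p = 0.0215, lost without either slide), whereas BZIP53 had 0.05 and 0.17.

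Late embryogenesis abundant proteins protect cells as seeds dry. From this list 9 measured loci without a name or description were left out. Of 6 such genes with a name, AtLEA4-1 was called higher with 0.94 and 1.07 (adjusted p = 0.000181), a share of 16.7% that lay near the 15.1% of all loci. The median of the 6 was 0.10 after PCR, against 1.62 unamplified, and 5 of the 6 had a called difference from unamplified, all lower after PCR. LEA4-5 had -0.09 and 0.41, LEA18 had 0.40 and -0.28, and M17 had -0.22 and -0.47. M10 had -0.17 and 0.43, and DI21 had -0.01 and -0.06. All 5 lay within 0.5 of 0 on both slides. Outside that list, the dehydrin gene LEA had 0.08 and -0.00 after PCR, against a mean of 4.69 unamplified.

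Of 5 autophagy genes with an ATG symbol, chosen after their values were seen, ATG8F had 1.43 and 1.28, ATG8E had 1.03 and 1.06, and ATG8H had 0.86 and 0.63, and all 3 were called higher in 90%-late. These encode ATG8 proteins, which coat the membranes of autophagosomes. ATG8B (0.21 and -0.24) and ATG3 (0.22 and -0.15) were not called, and their unamplified means were 1.28 and 0.55. Over all loci 15.1% were called higher in 90%-late and 14.7% lower. KIN2, a cold-induced gene, had 1.65 and 1.18, COR27, another cold-regulated gene, had 1.32 and 1.08, and the zinc finger repressor gene STZ had 1.63 and 1.02. DELTA-OAT, an ornithine aminotransferase of arginine breakdown, had 1.40 and 1.56, and MBAC1, a mitochondrial carrier of basic amino acids, had 1.23 and 1.38. Both slides exceeded 1 for each of these last 5 genes, and all 5 were called.

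On the early side the lowest of all symbols was scpl40, a serine carboxypeptidase-like gene, with -1.93 and -2.01 (-1.97 ± 0.06, adjusted p = 2.28e-06). CSLA01, of the cellulose synthase-like A group that makes mannan backbones, had -1.97 and -1.70 (adjusted p = 5.46e-06). GH9C2, GH9B10 and GH9B13, endoglucanases of glycosyl hydrolase family 9, had means of -1.77, -1.50 and -1.30. TBL15, of a family that acetylates wall polysaccharides, had -1.33 and -1.15. SKU5, a gene of directional root growth, had -1.14 and -0.91. In all of these the slides agreed within 0.3, and all were called.

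Expansins loosen walls without cutting them. Of 10 EXPA genes, 5 were called lower in 90%-late and 0 higher (15.1% of loci were higher and 14.7% lower), with a median of -0.35. EXPA21 had -1.32 and -1.20, EXPA20 -1.05 and -1.08, EXPA8 -0.75 and -0.97, EXPA25 -0.52 and -0.46, and EXPA7 -0.42 and -0.56. EXPA7 went the other way on unamplified slides, with a mean of 0.36. The expansin-like EXLA2 had -0.97 and -1.08, and EXPB3 had -0.54 and -0.92, both called, while EXLB1 was called higher with 0.28 and 0.47. Over the 23 expansins and xyloglucan endotransglucosylases 8 were called lower and 2 higher, with XTH26 at 0.22 and 0.80 and XTH19 at -0.67 and -0.82.

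Glycosyl hydrolase family 9, grouped after its values were seen, had calls in both directions. Of its 16 measured genes 7 were called lower in 90%-late and 3 higher, with a median of -0.33, where 14.7% of all loci were lower and 15.1% higher. GH9C1 had 1.92 and 1.87 (adjusted p = 3.03e-06) and stood with GH9B15 and GH9A4 (0.40 and 0.52) on the late side. GH9B11 (-0.91 and -1.02) and GH9A3 (-0.90 and -0.90) stood on the early side. The pectin genes showed a like split, where ADPG1, a polygalacturonase of pod dehiscence, had 2.17 and 1.60 and the pectin methylesterase PMEPCRF had -1.01 and -0.85. ATPMEPCRD had 1.21 and 0.41 and PME61 had -0.03 and -0.47. CSLA03 (-0.91 and -0.98) and CSLC04 (-0.60 and -0.73) were called lower with CSLA01, and the other 5 of 8 cellulose synthase and related genes were not called.

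Further families divided by member, as the plot of families by symbol shows. The 18 families there were grouped by the letters of their symbols after values had been seen, and their shares stand beside 15.1% of all loci called higher and 14.7% lower. Of 20 beta-glucosidase (BGLU) genes 7 were called higher and 3 lower, led by BGLU16 (1.49 and 1.16), BGLU41 (1.15 and 1.28) and BGLU45 (1.15 and 1.17) and, lowest, BGLU31 (-0.61 and -1.26). Of 18 TBL genes 3 (16.7%) were called higher and 5 (27.8%) lower, with TBL38 (1.08 and 0.93) and TBL15 at the ends. Of 16 IQD genes, which encode calmodulin-binding scaffolds at microtubules, 3 (18.8%) were higher, with IQD31 at 0.88 and 1.02, and 5 (31.2%) lower, with iqd33 at -0.78 and -0.89. None of 14 prenylated Rab acceptor (PRA) genes was called higher and 5 (35.7%) were called lower, led by PRA8 (-0.88 and -0.65). Near the shares of all loci were the 47 UDP-glycosyltransferases, with 6 (12.8%) called higher and 4 (8.51%) lower. The 28 carboxypeptidase-like genes had 5 (17.9%) higher and 6 (21.4%) lower.

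**Figure D3:**
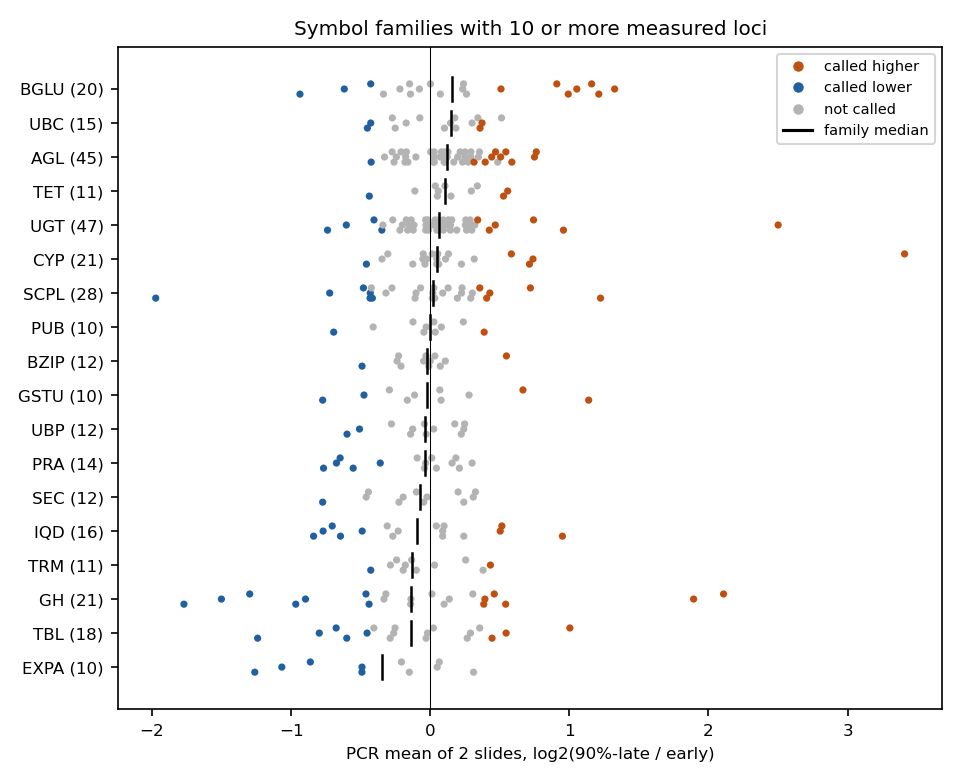
PCR mean of both slides, log2(90%-late / early), for each locus of the 18 symbol families with 10 or more measured loci, with the number of loci in brackets. Colours show calls, black bars are family medians, and vertical offsets within a family carry no value. EXPA has the lowest median (-0.35) and no member called higher, while the BGLU median is 0.15.

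Only 21 of 240 listed cytochrome P450s were measured, and CYP78A9 was the only CYP78 gene among them. The next members by ratio were CYP71B20 (0.64 and 0.84) and CYP71B5 (0.87 and 0.56). Of 21 measured, 4 (19.0%, beside 15.1% of all loci) were called higher and 1 (4.76%, beside 14.7%) lower, and the median was 0.05. UGT73C2 had a neighbour in sequence and symbol, UGT73C1, with 0.95 and 0.96 (adjusted p = 0.000117). Probes of near-identical family members may share target, and this was not tested.

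Regulators of pod pattern moved in both directions. SPT, a bHLH factor of the fruit's inner tissues, had 1.04 and 0.99 (adjusted p = 0.000442). ALC, a bHLH factor of the valve margin and a relative of SPT, had -1.06 and -0.78 (adjusted p = 0.000179). YAB3, a factor of valve and margin identity, had -0.49 and -0.46 (adjusted p = 0.0141, lost without either slide). Of 45 MADS-box genes 9 (20.0%, beside 15.1% of all loci) were called higher and 1 (2.22%, beside 14.7%) lower, with a median of 0.12, led by AGL46 (0.58 and 0.95), AGL57 (0.59 and 0.91) and AGL48 (0.52 and 0.66). The single lower one was AGL66, with -0.15 and -0.70. Of 8 WRKY genes 2 were called higher and 4 lower, where 15.1% and 14.7% of all loci were, with WRKY42 at -0.88 and -0.66.

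Genes of auxin response had 6 of 14 members (42.9%) called higher in 90%-late and 0 lower, with a median of 0.20, where 15.1% of all loci were higher and 14.7% lower. The calls of GH3.3, GH3.17 and IAA30 were lost without either PCR slide. YUC11, an enzyme of auxin synthesis, had 0.51 and 0.58. GH3.3 and GH3.17, which conjugate auxin to amino acids, had 0.62 and 0.47, and 0.28 and 0.51. GH3.9 had 0.34 and 0.43 after PCR and a mean of 3.84 unamplified. IAA18 had -0.15 and 0.07, and IAA15 had 0.05 and -0.07, with no call.

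Of 5 listed endosperm genes 0 were called, where 15.1% of all loci were called higher and 14.7% lower (PHE1 -0.12 and 0.15, IKU1 -0.33 and 0.05, IKU2 -0.45 and -0.21, AGL62 0.17 and 0.26, MPC -0.63 and 0.12). Only IKU2 and AGL62 had the same sign on both slides. Of the 5, 1 had a called difference from unamplified, MPC, with a mean of -1.84 unamplified and -2.06 after 2IVT. AGL62 had -0.29 unamplified and -0.85 after 2IVT. AT5G46950, EXPA21 and AT2G41000, which the study names as genes with endosperm-active upstream regions, are not in that list. AT5G46950 was called lower in 90%-late with -0.91 and -0.97 (adjusted p = 0.000363), as was EXPA21. AT2G41000 had 0.29 and 0.19 and was not called. The embryo factor BBM had 0.30 and -0.20. Of 4 seed coat flavonoid genes CHIL, which helps chalcone isomerase, was called lower with -0.81 and -0.61, and BAN, an enzyme of tannin synthesis, had -0.25 and -0.13. Both seed coat mucilage genes were not called, with AT3G50990, peroxidase 36, at 0.26 and 0.41. Both had a called difference from unamplified, lower after PCR, and AT3G50990 had an unamplified mean of 4.57. None of 4 pollen and anther genes was called (VGD1, VGDH1, ANX1 and AMS, with a median of -0.14). Seed storage protein genes were not analysed here as a list.

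SBPASE, an enzyme of the Calvin cycle, had -1.09 and -1.01 (adjusted p = 0.00125), and the photosystem subunit gene PSAE-1 had -0.52 and -0.63. PORB, an enzyme of chlorophyll synthesis, had 1.27 and 1.07 in the other direction. Of 6 photosystem and antenna genes 1 was called lower and 0 higher, and this 16.7% lay near the 14.7% of all loci called lower.

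Neighbouring loci sometimes shared a late ratio. There were 5362 pairs of measured loci next to each other in the RefSeq order. Of these, 13 had both members called and 2-fold higher in 90%-late, 0 had both 2-fold lower, and 3 were mixed. Over all 12340 loci, 290 (2.35%) were called and 2-fold higher, and 108 (0.875%) were called and 2-fold lower. The pair counts expected from these shares were not computed. Among the 13 were AT1G62060 and AT1G62070 (means 1.70 and 1.55), the GDSL lipase genes AT5G03810 and AT5G03820 (2.09 and 1.60), and AT2G41390 and AT2G41400 (2.63 and 2.18). One pair, AT1G12010 and AT1G12020, rests on a probe of the stretch described above. Neighbours can share sequence, which was not tested.

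The study compared regimes to ask how well target made from little RNA keeps the ratios of unamplified RNA. Set against unamplified slides, 2520 of 22326 probes (11.3%) had a higher log2 ratio after PCR and 2225 (9.97%) a lower one. These 2 regimes share 1 pair of RNA samples but no slide, and batch of slides and regime cannot be told apart. For the 38 late genes with a symbol, 37 had unamplified values, and the ratio was lower after PCR for 18 and higher for 1, BGLU41, where 9.07% and 11.1% of 12015 loci were lower and higher. For the 18 early genes, 2 were nearer to 0 after PCR and 3 further from it by the same test. Both sets were chosen by their ratio after PCR, which leaves out genes that fell below 2-fold there. These counts therefore cannot show how far late or early ratios were kept.

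The most negative differences (PCR minus unamplified, log2) were those of AT1G62070 (-8.09), AT1G62060 (-7.69), AT1G62225 (-7.39) and the oleosin AT3G01570 (-6.94), all called. AT1G62070 had a mean of 1.55 on PCR slides and of 9.64 on unamplified slides. Among named genes PAP85 had 0.56 and 0.60 after PCR against 6.64 unamplified, OLEO3 a mean of 1.33 against 6.11, and AOP3, of glucosinolate side-chain modification, 0.22 and 0.47 against 5.00. AOP3 was not called after PCR. ADPG1 averaged 1.88 against 5.31, FACT, a fatty alcohol caffeoyl transferase, 1.83 against 5.28, and ALPHA-VPE 2.02 against 5.14. For each of these, both PCR slides lay below the unamplified mean by over 3.

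The most positive differences included genes that were early on unamplified slides. Those given here were chosen for the size of this difference, except RXF26, which was chosen for its difference from 2IVT. INO, an ovule integument regulator, had 0.19 and -0.12 after PCR against -2.01 unamplified, and EXO, a gene of cell expansion, had -0.28 and 0.12, a difference of 1.92. TBL26 had 0.20 and 0.33 against -1.68, and RXF26 had -0.66 and -0.58 against -2.23, where only RXF26 was called early after PCR. ACT11, an actin of reproductive tissue, had 0.09 and -0.04 against -1.66. All 5 differences were called, with PCR higher, as was that of JAL23 (-0.41 and -0.51 against -2.10). Other early genes kept their ratio, as GH9C2 did with a mean of -1.77 against -1.73 and AT2G10940 with -1.61 against -1.54.

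Some ratios were larger after PCR. AT5G24130 had 3.44 and 2.96 against 0.89 unamplified (difference 2.32). PDC2 averaged 2.59 against 1.96 and UGT73C2 2.50 against 1.92, differences of 0.62 (adjusted p = 0.113) and 0.58 (adjusted p = 0.0824) that did not pass. On the early side scpl40 averaged -1.97 against -0.91 (adjusted p = 0.00132), AT4G23000 -2.10 against -1.08 (adjusted p = 0.00151), and DER1, a derlin of protein export from the endoplasmic reticulum, -1.20 against -0.53 (adjusted p = 0.0418).

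2IVT started from the same 50 ng. Of 21128 probes, 3504 (16.6%) were higher and 3236 (15.3%) lower after PCR than after 2IVT. FOLB3, a gene of folate synthesis, had 0.53 and 0.67 after PCR and 4.76 after 2IVT, a difference of -4.16. BGLU19 had 1.03 and 0.96 against 3.72, and EEL averaged 0.51 against 2.32. In the other direction SWEET11 averaged 1.85 against 0.32 (difference 1.53), ATG8F 1.35 against 0.21 (difference 1.14) and SAG29 2.45 against 1.29 (difference 1.16). AT5G44380, the highest matched locus after PCR, had a 2IVT mean of 0.81, a difference of 2.80. The PCR slides enter both of these comparisons, so the comparisons are not independent.

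Direction was mostly shared with the other regimes among probes called after PCR. The same shares over all probes, called or not, were not computed, so no baseline stands beside these. Of 3182 probes called higher after PCR and measured in all regimes, 63.3% were positive in the other 3 means and 9.11% were positive in none of them. Of 3503 called lower, 66.1% were negative in all 3 and 7.17% in none. Among those that were also 2-fold after PCR, 467 of 518 late and 203 of 230 early probes had the same sign in all regimes. In 225 late and 189 early probes the sign opposed all 3 other regimes and each of the 3 differences was called.

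TUB6, a beta-tubulin, was the symbol with the largest such ratio. It had -1.16 and -1.03 after PCR, against means of 0.23 after 2IVT, 0.59 after IVT and 0.08 unamplified. The other called tubulin, TUB7 (-0.46 and -0.33), had -0.46 unamplified, and the 6 further tubulins were not called. YLMG1-2 had -0.59 and -1.36, against 0.91 unamplified, and DER2.2, a further derlin, had -0.53 and -0.62 against 0.57. YAB3 had an unamplified mean of 1.34, opposite to its value after PCR, and a difference of -1.82. On the late side AT5G14680 had 1.97 and 1.70, against -0.15, -0.41 and -0.25 in 2IVT, IVT and unamplified target, and AT5G16340 had 1.27 and 1.12 against -1.49 unamplified.

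In all, 32 late and 23 early probes, AT5G14680 among them, were 2-fold and called after PCR while every other regime mean stayed within 1.5-fold. AT2G20820 had 1.99 and 1.80 with means from -0.37 to 0.05 elsewhere. AT1G32220 had -1.35 and -1.49 with means from -0.50 to 0.05, and DER1 belongs to the same set. Both PCR slides agreed for these 3 genes, while AT1G70500 in the same set had -2.64 and -0.07.

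The share of the unamplified ratio that PCR kept went with the span of the gene, a split added after values had been seen. The loci were cut into 3 groups of equal number by RefSeq gene span, introns included (121 to 1659, 1660 to 2656 and 2657 to 26499 bases). To keep the size of the ratio alike, loci between 2- and 4-fold late on 1 unamplified slide were averaged after PCR and on the other unamplified slide. With each unamplified slide choosing in turn, the PCR mean was 35.9% and 37.1% of the unamplified mean for short genes, 36.6% and 39.7% for middle ones and 48.9% and 48.8% for long ones. Loci 2- to 4-fold early gave 27.3% and 31.9%, 35.5% and 38.1%, and 41.6% and 41.8% from short to long. The share was lowest for short genes on either side. After 2IVT the order of the early loci was the other way, with 106% and 110% for short genes and 78.8% and 76.4% for long ones. On the late side 2IVT showed no order between 2- and 4-fold. It gave 77.7% and 82.3% for short, 80.8% and 85.7% for middle and 79.1% and 81.6% for long genes. After IVT the late share of these loci was 118% and 121% for short genes and 94.7% and 101% for long ones, opposite to PCR. With no upper limit, late loci gave 61.7% and 65.4% for short genes after 2IVT, lowest as after PCR. Middle genes gave 71.2% and 77.7%, and long ones 73.9% and 76.5%. IVT there gave 96.3% and 101% for short and 96.4% and 101% for long genes. The late contrast with PCR thus rests on the 2- to 4-fold loci, and the size of the ratio is not held alike without that limit. Between 127 and 196 loci entered each PCR value of the 2- to 4-fold loci, and between 168 and 307 each late PCR value without the limit. The shares after 2IVT and IVT rest on those of these loci that had values on both slides of that regime. A part of expression level or intron number in these shares was not tested.

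**Figure D4:**
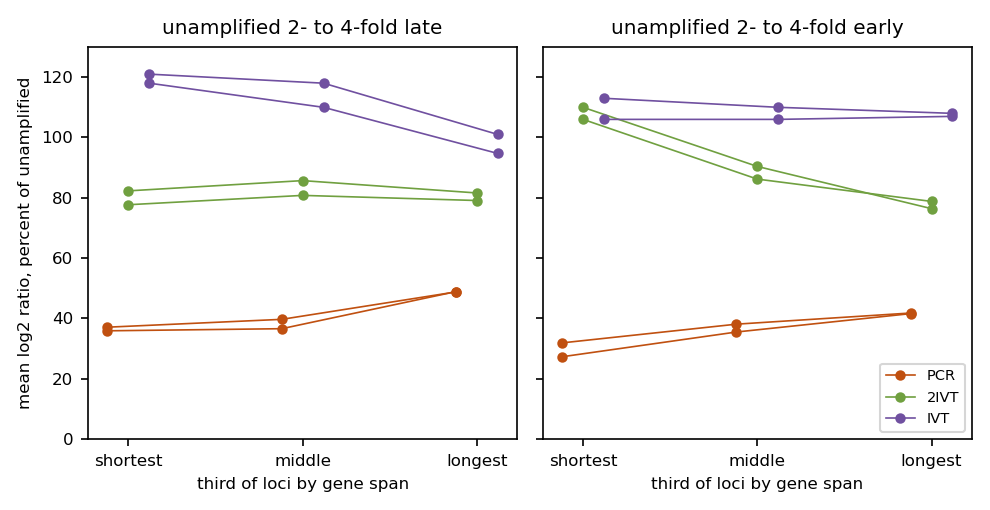
Mean log2 ratio after PCR, 2IVT and IVT as a percent of the unamplified mean (y axis) in 3 groups of loci by gene span (x axis), for loci 2- to 4-fold late (left) or early (right) on 1 unamplified slide. The lines of a colour are the values with either unamplified slide choosing the loci. PCR lies lowest in every group, from 27.3% for short early loci to 48.9% for long late ones.

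Some probes gave no ratio after PCR. Of 21649 probes with values on all 6 other slides, 1011 lacked a value on at least 1 PCR slide and 136 on both. Large unamplified ratios were about as frequent among them, since 6.53% of the 1011 and 6.53% of the rest were at least 2-fold late unamplified, and 4.75% and 4.48% were 2-fold early. AT4G27450, AT2G15010 and AT1G54870, with unamplified means of 4.33, 5.49 and 5.57, had no value on either PCR slide. MSRB6, a methionine sulphoxide reductase with an unamplified mean of 4.08, had 1.40 on slide 1 and none on slide 2. Conversely 150 probes had values on both PCR slides and on both slides of no other regime.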

How the data were processed

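The authors deposited log2 ratios of 8 slides, made from GenePix intensities and each slide scaled to its overall mean and then to local means over its surface and over intensity. Whether dim or saturated spots were replaced in the deposited values could not be read from the labels or methods, and intensities were not used. Log base and direction were inferred. Here the sign was turned and nothing else was changed. Each regime mean and each difference between regimes was fitted over all 8 slides (per-probe least squares, then the variance moderation of limma 3.58.1 in R 4.3.3), with Benjamini-Hochberg adjustment over all probes and a threshold of 0.05. The fit was tested on simulated data. A probe entered with values on both slides of each regime compared. Of the probes, 14538 matched 14280 RefSeq loci (TAIR10.1). A locus with several probes (154 of 12340, 69 with probes of unlike sign) was given by its probe mean and called only where every probe was.

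The genes named are the 12 highest and 12 lowest loci after PCR among those called with the same sign on both slides, the same among loci with a symbol, the up to 4 called members of each gene list with the largest ratios, measured genes named by the study, the 5 largest differences each way against unamplified and 2IVT, and further list members or genes given with values. Members and lists were chosen with earlier results of these data known. The ATG, GH9 and symbol families, the span groups and the genes opposed to other regimes were chosen after values were seen. Loci without a symbol or a description in the annotation or the study were given no role. Promoter motifs and protein lengths were not analysed here.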

Additional observations from a re-analysis of the deposited data

Results flagged for a closer look

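Of the loci named, 7 were at least 2-fold after PCR with a sign opposed to the means of all 3 other regimes, and each difference from those regimes was called. The late ones had PCR means of 1.84 (AT5G14680), 1.73 (AT1G10095), 1.33 (AT1G75420), 1.33 (AT1G29670), 1.19 (AT5G16340) and 1.03 (AT1G78170), and TUB6 had -1.10. AT1G10095 and AT1G75420 were high on slide 1 alone, with 2.95 and 2.44 there and 0.52 and 0.22 on slide 2. The slides of the other 5 agreed in sign and lay within 0.6 of each other. Unamplified means were -0.25 for AT5G14680, -0.42 for AT1G10095, -0.34 for AT1G75420, -0.98 for AT1G29670, -1.49 for AT5G16340, -1.13 for AT1G78170 and 0.08 for TUB6. The calls of AT1G10095 (adjusted p = 0.0828) and AT1G75420 (adjusted p = 0.561) were lost without slide 1, and that of AT1G78170 without slide 2. With 2 slides a regime, no test for a sample far from its group could be made.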

How the results depend on the processing

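Leaving out each slide in turn gave 3640 to 7985 probes called after PCR (1786 to 3763 higher in 90%-late, 1854 to 4222 lower), where all slides gave 7234. The count was 4114 without PCR slide 1 and 3640 without PCR slide 2, fits in which the lone slide is assumed to vary like the other regimes. PCR minus unamplified ranged over 2512 to 5605 (1224 to 3039 higher, 1288 to 2566 lower), lowest without unamplified slide 2, and PCR minus 2IVT over 4908 to 6930 (2498 to 3518 higher, 2410 to 3412 lower). Centring each slide on its median moved PCR minus unamplified to 2114 higher and 2532 lower, 45.5% higher in place of 53.1%. Slides with the same number shared only a number, since deviations correlated between -0.06 and 0.03, and a replicate block gave 6785 calls after PCR, 4480 for PCR minus unamplified and 6433 for PCR minus 2IVT. A fit of the compared regimes alone gave 4886 calls for PCR minus 2IVT, where the full fit gave 6740. Of 120 named genes called after PCR, 37 lost the call without a PCR slide, 8 without a slide of another regime and 5 (GH3.17, AT2G36550, scpl21, Hsp70-2 and AT5G36720) under a setting that left out no slide, and 0 changed sign. Among those lost without either PCR slide were EEL, YAB3, TUB7, AGL48, GH3.3, GH3.17, IAA30 and PAP85, and FOLB3 was lost without slide 2. With 2 slides of 1 RNA pair, no spread between plants was measured.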
